A study of Oncorhynchus mykiss with 6 samples.

Results

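The subject is a set of 173 predicted microRNAs (miRNAs) from the liver of rainbow trout (Oncorhynchus mykiss). They were chosen from 2730 listed names, of which 522 belong to known miRNA families and 2208 are predictions. A prediction entered the set when its sequence stood under exactly 1 name and its total over the 6 libraries was 60 or more. Of the 775 predictions with a single name, 602 fell below that total. The total is a measured value, so abundance was part of the choice and is given as a description. The comparison of temperatures was not part of it. The deposited IDs of predictions share a prefix, which is left off here, and the remainder is a number followed by 5p or 3p.

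Both groups were female fish of 150 days with a mean weight of 200 ± 5.5 g, held in tanks of 500 L. The 3 control libraries (CG) came from fish kept at 18 °C. For the 3 heat libraries (HS) the water was warmed from 18 to 24 °C at 1 °C a day before the liver was taken. The labels mention 12 fish harvested and do not say which fish, or how many, went into each library. The p-values therefore measure the spread between these libraries, which may be technical. A protocol field of the labels describes retinas and fragmented RNA without ribosomal RNA, which is not a small RNA preparation, so the preparation used is taken as not given. Values listed by group below are in the order of replicates 1, 2 and 3.

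A miRNA is cut from a hairpin precursor, first by the nuclease Drosha and then by Dicer. The strand from the left side of the hairpin is called 5p and that from the right side 3p, and usually one of them is retained in the Argonaute protein. Bases 2 to 8 of the retained strand, the seed, choose the messenger RNAs that it represses. A predicted miRNA is a small RNA whose reads fit such a hairpin without belonging to a named family, and the files give no target or function for any of these.

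Total counts ran from 9267658 to 12778484 per library. Control replicate 2 and heat replicate 1 stood apart from the other 4 libraries, with scaling factors of 1.25 and 1.24 (TMM, the trimmed mean of M-values) against 0.87 to 0.92. The liver families miR-122, miR-192, miR-194 and miR-148 took 28.2% to 34.7% of counts in control and 29.7% to 33.5% in heat. Pancreas families took 0.0134% to 0.0433% in control and 0.0160% to 0.0360% in heat, highest in control replicate 2 and heat replicate 1. Leukocyte families took 0.122% to 0.313% in control and 0.0833% to 0.346% in heat, highest in the same 2 libraries. Neural and retinal families took 0.0060% to 0.0141% in control and 0.0054% to 0.0123% in heat, again highest there. Endothelial and stromal families took 13.2% to 16.4% in control and 13.5% to 15.7% in heat and were lowest in those 2 libraries, as were the liver families. Erythrocyte families (0.347% to 0.839% in control and 0.492% to 0.531% in heat) and muscle families (at most 0.0037%) were highest in control replicate 2, and heat replicate 1 was below 2 libraries. At least 1 name of every family in these 7 lists was listed, and the part of these cells in the members' values was not tested.

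The 4 most abundant members are shown first, because they set the scale of the set, with the seed in capitals and T written for U as in the files.
m1027-3p: tAGAATACtgtagtatgtact
m0792-5p: gAGTAAATggaaaggtctga
m1758-5p: aCACCAACtgttccaatacaat
m1758-3p: gTTGTGGGacctttggtgcta

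Members were rare next to the known families. All 173 together held 56556 counts, or 0.0870% of all counts and 33.3% of the counts of predictions. Both shares are of sums over all names, in which a sequence under several names counts once for each name. With a total of 60 or more there were 276 such names for 76 predicted sequences. Counting each sequence once would make the share among predictions higher. Totals ran from 60 to 6372 with a median of 137, against a median of 2731.5 for the 254 known names with a total of 60 or more. Predicted sequences under several names (76 with such a total) had a median of 138.5. Totals reached 1000 in 11 members, lay from 100 to below 1000 in 104 and were below 100 in 58. The 10 most abundant held 42.6% of the members' counts.

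**Figure D1:**
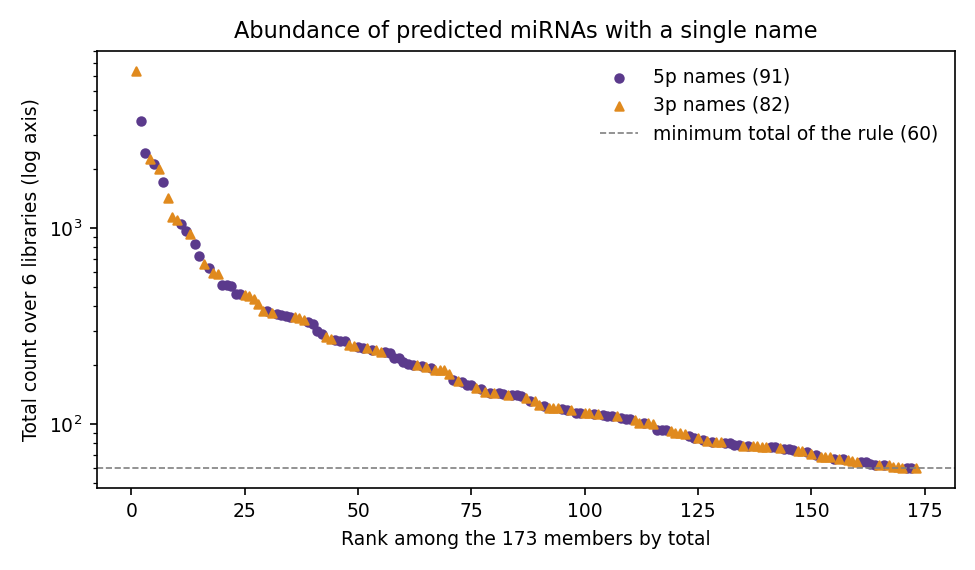
Total count over the 6 libraries (log axis) of each of the 173 members, ranked from the highest (6372, m1027-3p) to the lowest (60), with 5p names as circles and 3p names as triangles. The dashed line marks the minimum total of 60, and both kinds of name are spread over the whole range.

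The most abundant member, m1027-3p, had 822, 1344 and 700 counts at 18 °C and 2195, 639 and 672 counts at 24 °C. Heat replicate 1 was highest, and the groups overlapped. Next came m0792-5p with 299, 1088 and 497 counts in control and 728, 474 and 447 in heat. Here control replicate 2 was highest and the groups again overlapped. m1758-5p had 335, 290 and 385 counts in control and 515, 366 and 524 in heat. Scaled by library totals its heat libraries (39.5 to 51.1 CPM) lay above the controls (24.4 to 34.6 CPM), whereas after TMM scaling the groups overlapped. m1045-3p, the sixth by total, had 273, 367 and 335 counts in control and 375, 298 and 355 in heat. m0043-5p had 205, 300 and 290 counts in control and 237, 293 and 401 in heat. The groups overlapped for both of these.

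The minimum of 60 did not fall at a gap. Just inside it were m0246-3p, m0333-5p and m0372-5p, each with a total of 60. m0246-3p, for example, had 13, 8 and 4 counts in control and 26, 2 and 7 in heat, and its groups overlapped. Just outside were m1098-5p and m1856-3p with 59 and m1073-5p with 58.

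Members had the size of miRNAs. The median length was 22 bases, with 89 members of 22, 47 of 21, 25 of 23, 9 of 20 and 3 of 24 bases. Weighted by counts, 41.4% were of 22 and 36.5% of 21 bases. Length 22 took 51.4% of members, 61.8% of the predicted sequences under several names and 40.9% of the known names. The last of these also held 14 names of 18 bases and 7 of 19 bases, lengths that no member had. The median GC content was 45.0% in members (27.3% to 68.2%) and 45.5% in known names.

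A T (U in the RNA) stood first in 85 of 173 members, or 49.1%. The share was 49.2% for known names and 56.6% for predicted sequences under several names. By counts, T-first sequences held 44.7% of the members' counts and 62.5% of those of known names. G stood first in 14 members, which held 18.1% of the members' counts, against 0.366% of the counts of known names. Much of the G-first share came from m0792-5p, m1758-3p and m1045-3p, which are 3 of the 10 most abundant members. These differences between classes were not tested.

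**Figure D2:**
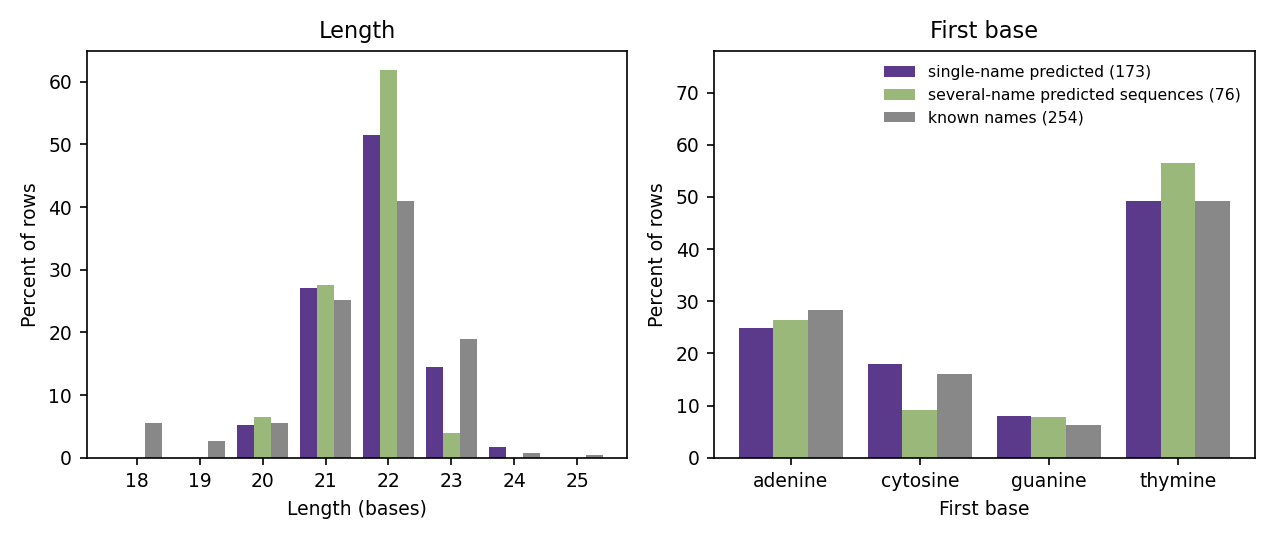
Percent of rows by length in bases (left) and by first base (right) for the 173 members, 76 predicted sequences under several names and 254 known names, all with a total of at least 60. Length 22 leads in each class (51.4%, 61.8% and 40.9%) and thymine is the most frequent first base (49.1%, 56.6% and 49.2%).

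The ending of the ID split the set almost evenly. There were 91 members ending in 5p and 82 ending in 3p, with 28324 and 28232 counts, or 50.1% and 49.9%. Median totals were 143 and 121.5, and T stood first in 47.3% and 51.2%. Names ending in 5p took 46.1%, 46.5% and 53.7% of the members' counts at 18 °C and 48.8%, 54.7% and 54.6% at 24 °C, so the groups overlapped. All 3 members of 24 bases were 5p names.

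For most members only 1 arm was listed. The other arm of the same number was not listed for 109 members, listed below a total of 60 for 24, listed under several names for 14, and itself a member for 26. These last 26 form 13 pairs. Besides m0792 and m1758, whose sequences are given above except for 1 arm, the pairs with the highest totals were m1045 and m0707.
m0792-3p: tCATTCCAttccatggattcc
m1045-5p: aGATATGAcgtgtatagaatgg
m1045-3p: gTTCTATActggtcatctctct
m0707-5p: aTGTCATTgattgtggtgagt
m0707-3p: tCTCACTCcagccaatgtttgt

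Folded against each other with RNAduplex, which finds the most stable pairing of 2 RNA strands, the 13 pairs had 14 to 19 paired bases and energies from -29.9 to -13.9 kcal/mol (median -18.6). The cuts by Drosha and Dicer typically leave 3′ ends that overhang by 2 bases. Both ends showed this in 1 pair, m1758, and at least 1 end in 3 pairs. Among the 119 other predicted pairs of distinct sequences, both ends showed it in 10 (8.40%) and at least 1 end in 48 (40.3%), with a median energy of -19.8 kcal/mol. These other pairs had no minimum total. They include sequences under several names and pairs with 1 arm among the members, so the sets are not alike. The difference was not tested.

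The dominant arm was stable in some pairs and not in others. The same arm was higher in all 6 libraries for 6 pairs, 4 of them with 5p on top and 2 with 3p. In m1045 the 5p arm held 7.46%, 11.8% and 4.56% of the pair's counts in control and 6.25%, 5.40% and 3.27% in heat, so 3p dominated throughout. In m0707 it held 42.0%, 78.8% and 37.4% in control and 54.3%, 40.0% and 45.3% in heat. The swing to 5p was largest in control replicate 2, where m0707-5p had 376 counts and m0707-3p had 101. m1758 went the other way in that library. Its 5p arm held 33.3% in control replicate 2, against 50.1% to 58.3% in the other 5 libraries. In m0792 the share was 77.5%, 54.9% and 93.6% in control and 75.0%, 89.3% and 80.8% in heat. Behind its low value in control replicate 2 lay m0792-3p, with 87, 894 and 34 counts in control and 243, 57 and 106 in heat. The 5p share was at its lowest in control replicate 2 for 6 of the 13 pairs and at its highest there for 2. Heat replicate 3 held the highest 5p share for 5 pairs and the lowest for 1. Control replicate 2 also had the highest TMM factor. Each arm share was computed from unscaled counts of both arms in the same library, so scaling leaves it unchanged. Why the shares differed in control replicate 2 was not tested.

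Members with a single name were not always distinct from other rows. Nested sequences, in which 1 row lies wholly inside another, involved 20 of 173 members. In 4 cases both rows were members, and all 4 differed only at the 3′ end. The shared part is in capitals.
m0760-3p: CCAGTATGGCTTGTGCTGCTaac
m1691-3p: CCAGTATGGCTTGTGCTGCT
m0641-5p: TTGGTTATTGTCCTTGATGATc
m0889-3p: TTGGTTATTGTCCTTGATGAT
m0429-5p: TTTCTGACTTGCTAATTGGTTGt
m0128-5p: TTTCTGACTTGCTAATTGGTTG
m1574-3p: TGGCAACTTGGACCTCAACCCt
m0826-3p: TGGCAACTTGGACCTCAACCC

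These 8, apart from m0760-3p, are named for their nesting after their values were seen. m1574-3p and m0826-3p had identical counts, 9, 17 and 20 in control and 21, 2 and 9 in heat, so they are not 2 independent members. m0641-5p and m0889-3p carry opposite endings although 1 sequence holds the other. The shorter m0889-3p had 48.7% to 66.2% of the counts of m0641-5p in the 6 libraries. m1691-3p had 7.08% of the counts of m0760-3p in heat replicate 1 and 12.5% to 24.2% in the other libraries.

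Most members did not resemble a known miRNA of the files, and 9 did. The longest run shared with any known name had a median of 8 bases, and reached 18 or more in 9 members. In each pair of lines the shared run is in capitals.
m0771-3p: CCTGGATGTGGGTTCCGTCTcc
miR-462-y: CCTGGATGTGGGTTCCGTCT
m0738-5p: ACTGATTTCCTCTGGTGTTcaga
miR-29-x: ACTGATTTCCTCTGGTGTTtaga
m0655-5p: CAGTGTTCAGACTACCTGTTCatt
miR-199-x: ccCAGTGTTCAGACTACCTGTTC
m1358-5p: TGAAACGTTTTAGCCAAAAatg
miR-722-x: ttTGAAACGTTTTAGCCAAAA
m2002-3p: TCAGGTCACATGTTCAGGATAa
miR-8163-y: TCAGGTCACATGTTCAGGATA

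m0771-3p is the listed miR-462-y with 2 more bases at its 3′ end. miR-462 forms, with miR-731, a cluster known from fish that is induced by hypoxia and virus infection. The longer form was counted 237, 492 and 73 times in control and 189, 55 and 53 times in heat, and the listed form 81, 466 and 42 times in control and 102, 26 and 33 times in heat. The longer form was the more abundant in all 6 libraries, at 106% to 293% of the listed one. It carries the same seed.

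m0738-5p differs from miR-29-x by T20C, where the known base comes first and positions are counted from 1 at the 5′ end. The member had 55, 139 and 62 counts in control and 377, 43 and 45 in heat, and the listed miR-29-x 589, 539 and 1247 in control and 873, 1335 and 1381 in heat. Relative to miR-29-x this was 25.8% in control replicate 2, 43.2% in heat replicate 1 and 3.22% to 9.34% in the other 4 libraries. Its high values thus fell in the 2 libraries that stood apart, 1 from each temperature.

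m0655-5p begins 2 bases downstream of miR-199-x, an abundant miRNA of stromal cells, so that its seed differs. It had 44, 73 and 36 counts in control and 155, 26 and 20 in heat, next to a total of 5382412 for miR-199-x. Its level was 0.0124% of miR-199-x in control replicate 2, 0.0171% in heat replicate 1 and 0.00221% to 0.00431% elsewhere, with the same 2 libraries on top. m1358-5p likewise begins 2 bases downstream of miR-722-x, a fish miRNA, and has another seed. It had 15, 117 and 6 counts in control and 41, 27 and 35 in heat. Control replicate 2 was highest, and the groups overlapped. m1674-5p extends miR-9225-y by 2 bases and was the more abundant form, with a total of 124 against 13.

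A seed of a known name was found in 13 members, 6 of which are among these 9. The 173 members held 163 distinct seeds, so families by seed were small within the set. The choice of members had left out sequences under several names and totals below 60. Among all predictions, 48 members shared a seed with at least 1 other name. Each member with the seed TGCTGGT shared it with 33 other predicted names. Only 7 seeds occurred in more than 1 member, in 17 members together. The largest group had 4 members with the seed TGCTGGT, listed here after their values were seen.
m1904-5p: tTGCTGGTtacatggtctgtga
m1335-5p: tTGCTGGTgacactgtcgtga
m1713-5p: tTGCTGGTgacactgtcagag
m0685-3p: tTGCTGGTggcactgtctatga

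Of these, m1335-5p and m1713-5p share a run of 17 bases with m0602-5p, which starts 1 base earlier and so has another seed. Their counts peaked in different libraries. m1335-5p was counted 19, 37 and 20 times in control and 62, 102 and 4 times in heat, so heat replicates 2 and 3 held its highest and lowest counts. m1713-5p had 40, 46 and 24 counts in control and 54, 10 and 20 in heat, with heat replicate 1 highest by count and heat replicate 2 lowest. Scaled by library totals, heat replicate 1 (4.23 CPM) was close to control replicate 1 (4.13 CPM). After TMM scaling control replicate 1 was highest. A second group of 3 members, m0506-5p, m1206-3p and m1266-5p, carried the seed ATGGCAC, which the files also list for miR-183-x, a miRNA of sensory cells, and miR-263-x. Runs of 12 or more bases between 2 members, linked stepwise, joined 22 members into 8 groups, the largest of 6 members. The longest run common to all 6 was 4 bases. One group is m0043-5p, m1217-5p and m0732-5p, picked out after their values were seen, which have a run of 10 bases in common, here in capitals.
m0043-5p: aacGGAATGGCATcaaatacatg
m1217-5p: aaatGGAATGGCATcaaacact
m0732-5p: tatGGAATGGCATtgaacacct

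At 18 °C the members took 0.0738%, 0.109% and 0.0727% of all counts, and at 24 °C 0.111%, 0.0694% and 0.0748%. The groups overlapped, at 0.0852% ± 0.0207 in control and 0.0852% ± 0.0229 in heat (SD, n = 3). Control replicate 2 and heat replicate 1 were highest, and without these 2 libraries the shares lay between 0.0694% and 0.0748%. As a share of the counts of predictions the members varied less, at 34.0% ± 0.668 in control and 32.3% ± 1.93 in heat (SD, n = 3). Scaled by library totals, 66 members had their highest value in control replicate 2 and 45 in heat replicate 1. With TMM scaling these numbers were 44 and 23, and heat replicate 1 no longer led the other libraries, which held 24 to 29 each. In bulk liver, fewer cells of a type and less RNA per cell cannot be told apart.

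**Figure D3:**
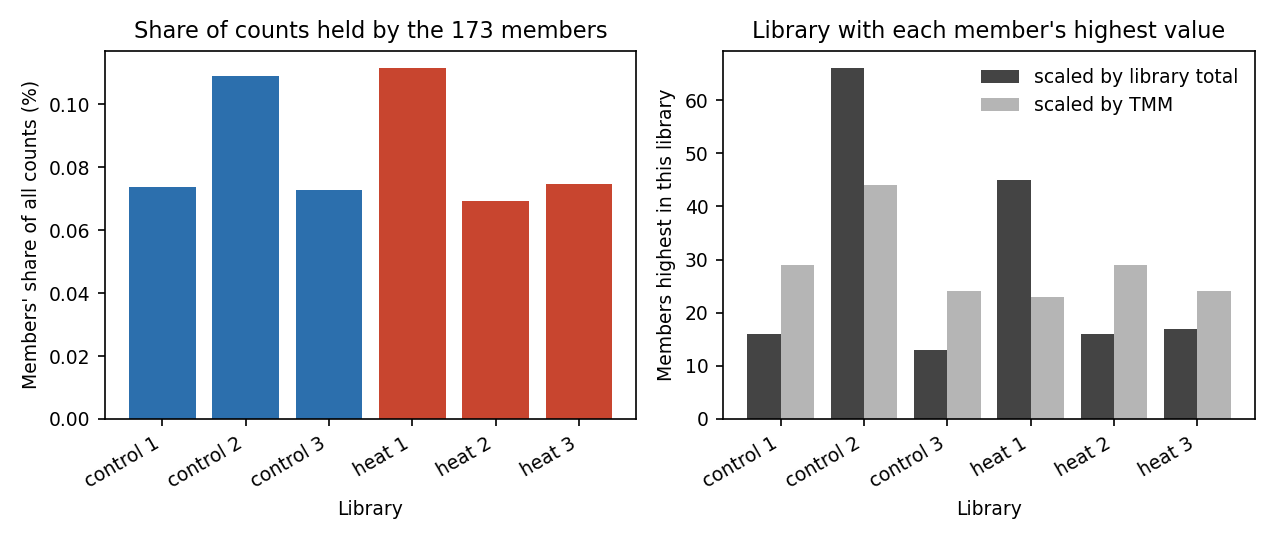
Left, percent of all counts held by the 173 members in each library, with control bars in blue and heat bars in red. Right, number of members whose highest value fell in each library, scaled by library totals (dark) or by TMM (light); control replicate 2 leads under both scalings, with 66 and 44 members.

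Detection was near complete, but members were chosen by a minimum total over the same libraries, which favours detection. Of the 602 predictions with a single name below that total, 76 had a count in all 6 libraries. Detection is therefore given as a description. The number of members with a count above 0 was 162, 168 and 166 at 18 °C and 169, 163 and 160 at 24 °C, or 165 ± 3.06 and 164 ± 4.58 (SD, n = 3). The 3 libraries with the highest total counts, heat replicate 1 and control replicates 2 and 3, had the most members detected. All 6 libraries held a count for 147 members (85.0%). Among these, the highest library exceeded the lowest by a median of 3.48-fold after TMM scaling, from 1.40-fold to 29.4-fold. The range stayed under 2-fold for 14 members and passed 10-fold for 9. The smallest count above 0 in any library was 2.

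The remaining 26 members were at 0 in at least 1 library, and for several of them the count was high elsewhere. A count of 0 was set against a limit of 3 counts, which is 0.235 to 0.324 CPM (counts scaled to equal library size) here. These limits cover counting error only. No count of 1 occurs in any library, so a 0 may stand for a removed 1. The limit would then be higher, and the folds given against it lower. No member was at 0 in all controls, and 2 were at 0 in all heat libraries.
m1971-3p: tCTGGATCgatctgtacgaca
m1377-5p: tCTAGTCTgtttgtgcttttgtc
m1835-3p: aCATAGACctggtctgttgact
m0618-3p: tATAGTCTaggaccaggctagg

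m1971-3p was counted 244 times in control replicate 1 and 0 times in the other 5 libraries. Its 25.2 CPM was at least 77.8-fold higher than the limit of 3 counts in any of those. m1377-5p had 79 counts in control replicate 2 and 0 elsewhere, at least 20.5-fold above the same limit. Both are library patterns and not group patterns, since the other 2 controls lacked them too. m1835-3p was nearly as narrow, with 149 counts in heat replicate 1, 4 in control replicate 3 and 0 elsewhere. m0618-3p had 80 counts in control replicate 2 with 3 and 5 in the other controls and 2, 0 and 0 at 24 °C. These 4 were the only members with at least 80% of their scaled counts in 1 library.

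The other arm of the hairpin, whose counts the choice of members did not use, was listed for m1971-3p and m1377-5p. m1971-5p was listed with 17 counts, all in control replicate 1. m1377-3p was listed with 8 counts, all in control replicate 2. With so few counts, absence from the other libraries says little. m1977-5p, picked out after its values were seen, also had all of its 6 counts in control replicate 2. Yet m1977-3p was counted in every library. The other arms of m1835-3p and m0618-3p were not listed.

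m1111-5p was at 0 in control replicate 2 alone, and had 139 counts in control replicate 1, 822 in control replicate 3 and 681, 138 and 352 at 24 °C. In its lowest library above 0 it was still 56.9-fold higher than the limit of 3 counts in control replicate 2. Its other arm had 10, 18 and 4 counts in control replicate 3, heat replicate 1 and heat replicate 3, and 0 in the remaining libraries. The 3 libraries with the most m1111-5p were thus the ones with its other arm.
m1111-5p: aCCGGCTGgaacgtcaactgc
m0890-3p: tTAGCCTGccatgttgtgaatc
m0891-5p: tTTCTTACatagtgcactattt

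m0890-3p and m0891-5p, picked out after their values were seen, shared one pattern of presence. m0890-3p was counted 0, 89 and 0 times in control and 203, 0 and 301 times in heat, and m0891-5p 0, 64 and 0 times in control and 32, 0 and 24 times in heat. Both were present in control replicate 2 and heat replicates 1 and 3 alone. The other arm of m0891-5p, listed under several names, had 2, 9 and 3 counts in those 3 libraries and 0 elsewhere. That of m0890-3p had 12 counts, all in heat replicate 3, where m0890-3p was highest. Of the 26 members at 0 somewhere, 8 had a listed other arm. It was also at 0 in all such libraries for 6 and above 0 in at least 1 for m0632-3p and m1123-3p. The other arms of the 6 had totals of 8 to 32, so a 0 in them says little about single libraries.

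**Figure D4:**
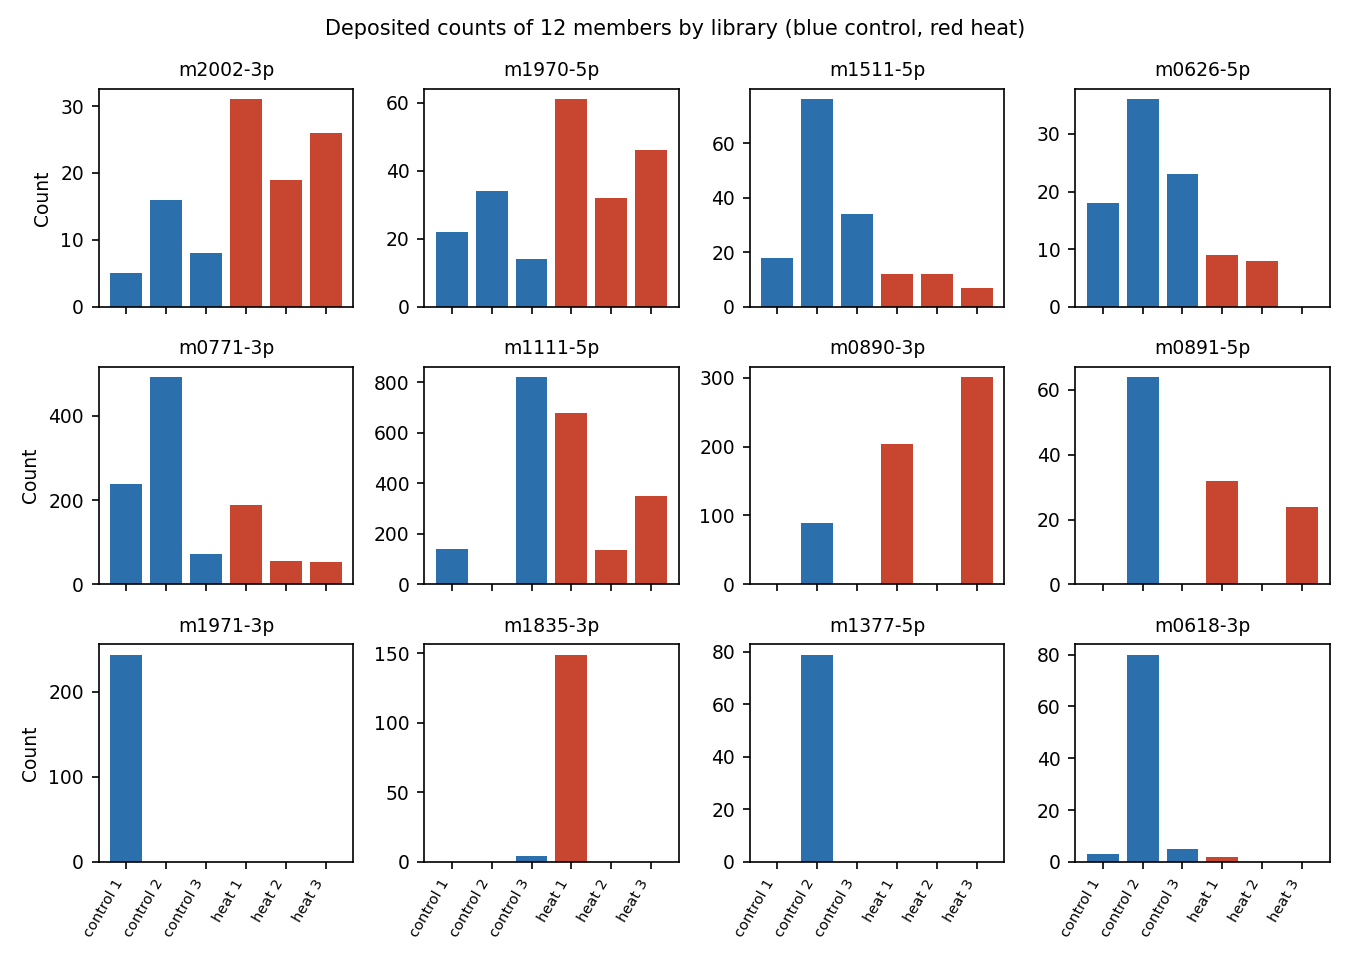
Deposited counts of 12 members in each library, with control bars in blue and heat bars in red and a separate count axis from 0 in every panel. The top row and m0771-3p show the members with the lowest p between temperatures; the other panels show members at or near 0 in some libraries, such as m1971-3p with 244 counts in control replicate 1 and 0 elsewhere.

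Between 24 and 18 °C no member passed the test. Of 173 members, 157 passed the filter on low counts and 16 did not, among them m1971-3p, m1377-5p, m1835-3p and m0618-3p. m0626-5p passed the filter through the control libraries alone, all its heat values being under the minimum, and 75 passed it in all 6 libraries. edgeR's quasi-likelihood test called 0 of the 157 at an adjusted p under 0.05, and 0 of all 651 names tested (0%). DESeq2 also called 0 members, and 2 of the 651 names (0.307%). By edgeR an unadjusted p under 0.05 was found for 5 members, or 3.18%, against 3.07% of all names (20 of 651). DESeq2 gave 4 members, or 2.55%, against 5.84% of all names. Of the 5 by edgeR, 2 were higher in heat (1.27%, background 2%) and 3 lower (1.91%, background 1.08%). The names include sequences listed several times. With each sequence counted once the background was 2.1% (10 of 476), with 0.84% higher and 1.26% lower, so on the higher side the members lay below one background and above the other. Both are a few sequences, and nothing is read from the difference. The fitted fold was above 1 for 74 members and below 1 for 83. Fitted log2 fold changes of members ran from -2.54 to 2.86. The median was -0.02 for members and -0.02 for all names.

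**Figure D5:**
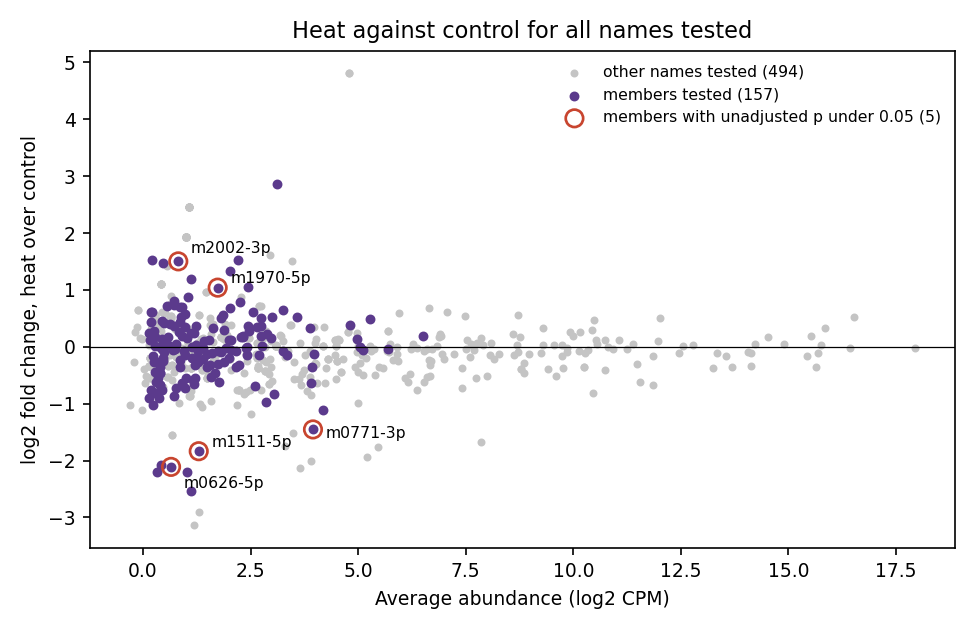
Log2 fold change of heat over control against average abundance (log2 CPM) for the 157 members tested (purple) and the 494 other names (grey). Rings mark the 5 members with an unadjusted p under 0.05; none passed after adjustment over the 651 names, and the members scatter on both sides of 0.

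The 5 members with the lowest p are given with their sequences, because the comparison of temperatures turns on them.
m2002-3p: tCAGGTCAcatgttcaggataa
m1970-5p: aCTGTAGTgtttttggcagact
m1511-5p: tGTGGGTTgaatagattgacact
m0626-5p: cTATTCCCtatgttgtgcact
m0771-3p: cCTGGATGtgggttccgtctcc

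m2002-3p was counted 5, 16 and 8 times in control and 31, 19 and 26 times in heat. Scaled by TMM its level was 2.37 ± 0.418 CPM in heat against 0.815 ± 0.256 in control (SD, n = 3), and each heat library exceeded every control. Its log2 fold change was 1.50 ± 0.48 (SE, 95% interval 0.41 to 2.60), with an edgeR adjusted p of 0.948. Scaled by library totals, control replicates 1 and 3 (0.516 and 0.720 CPM) were under the minimum of the count filter. Only replicate 2 of the controls (1.35 CPM) was past it, as were all heat libraries. m2002-3p thus passed the filter mainly through the group in which it was high, and its place among the 5 is no support for a difference. It is the listed miR-8163-y with 1 more base. That listed form had 158, 160 and 122 counts in control and 232, 143 and 185 in heat, and a log2 fold change of 0.35 ± 0.37 (SE). The difference between the forms was not tested.

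m1970-5p had 22, 34 and 14 counts in control and 61, 32 and 46 in heat. After scaling, the 3 heat libraries lay above all controls, at 4.25 ± 0.599 against 2.06 ± 0.567 CPM (SD, n = 3), although by count heat replicate 2 was below control replicate 2. The log2 fold change was 1.04 ± 0.44 (SE, 95% interval 0.03 to 2.05, edgeR adjusted p = 0.948).

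m1511-5p had 18, 76 and 34 counts in control and 12, 12 and 7 in heat. All 3 heat libraries lay below all controls, at 0.999 ± 0.423 against 3.52 ± 1.54 CPM (SD, n = 3). Scaled by library totals, heat replicate 3 (0.683 CPM) was under the minimum of the count filter and heat replicate 1 (0.939 CPM) barely past it. All controls were past it. The log2 fold change was -1.84 ± 0.56 (SE, 95% interval -3.13 to -0.54, edgeR adjusted p = 0.948). m0626-5p had 18, 36 and 23 counts in control and 9, 8 and 0 in heat. Its level was 0.520 ± 0.498 CPM in heat against 2.26 ± 0.203 in control (SD, n = 3). Because it was tested only through the group in which it was high, these values are a description, and its place among the 5 is no support for a difference.

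m0771-3p, the longer form of miR-462-y, had a level of 8.15 ± 3.33 CPM in heat against 22.4 ± 13.4 in control (SD, n = 3). The groups overlapped, since control replicate 3 lay below heat replicate 1. The log2 fold change was -1.45 ± 0.60 (SE, 95% interval -2.83 to -0.07, edgeR adjusted p = 0.948), and that of the listed miR-462-y was -1.75 ± 0.74 (SE, edgeR adjusted p = 0.948).

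Groups did not overlap for 11 of the 157 members tested, or 7.01%, against 8.29% of all names and 6.72% of sequences counted once. Of these, 4 were higher in heat (2.55%, background 5.22% of names and 2.73% of sequences) and 7 lower (4.46%, background 3.07% and 3.99%). The next names by p did not reach an unadjusted p of 0.05. These were m0819-5p (log2 fold change 0.78 ± 0.50, SE), m1112-5p (0.68 ± 0.46) and m1579-5p (1.06 ± 0.72) on the higher side. On the lower side they were m1184-3p (-2.08 ± 1.04) and m1420-3p (-2.20 ± 1.12). m1579-5p had 194 of its 379 counts in heat replicate 1. m1184-3p had 6, 55 and 11 counts in control and 15, 0 and 2 in heat. m1420-3p had 57, 27 and 10 in control and 7, 13 and 0 in heat. Both of these passed the count filter mainly through the controls, where they were high, so their places are no support for a difference.

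Among the 10 most abundant members, 8 had fitted log2 fold changes between -0.13 and 0.48, and m0792-3p and m0771-3p (-1.45, above) lay lower. The log2 fold change of m1027-3p was 0.19 (95% interval -0.60 to 0.99), that of m1045-3p 0.15 (-0.66 to 0.95) and that of m0792-5p -0.04 (-0.88 to 0.80). For m1758 the values were 0.48 (-0.43 to 1.40) for 5p and -0.06 (-0.87 to 0.75) for 3p. m0043-5p had 0.38 (-0.66 to 1.42), m0760-3p had -0.13 (-1.51 to 1.25) and m0792-3p had -1.12 (-3.28 to 1.04). For m1111-5p, with its 0 in control replicate 2, the fitted value of -0.01 had an interval of -3.46 to 3.44. The 95% interval excluded a 2-fold change either way for 7 of the 157 members and a 4-fold change for 105. The median SE was 0.56 in log2, against 0.42 for the 249 known names tested. Differences near 2-fold were therefore mostly not resolved for members. How much of the SE came from low counts and how much from the spread between libraries was not tested.

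Leaving out 1 library moved the number of members with an unadjusted p under 0.05 from 5 to as few as 2 (1.18% of members tested, without heat replicate 3) and as many as 9 (5.56%, without heat replicate 1), with 0 called in each case. Over all names the shares in these fits were 3.19% and 6.87%. The number was 3 without control replicate 1 (1.81%, all names 3.44%), and 5 without control replicate 2 and heat replicate 1 together (3.62%, all names 8.66%). Without a filter on low counts edgeR called 23 of 2730 names (0.842%) and 1 of 173 members, m0618-3p (log2 fold change -5.06, adjusted p = 0.000369), with 80 of its 90 counts in control replicate 2. m0618-3p entered the set only through that library, so the call is no support for a difference.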

How the data were processed

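Per the file headers, the authors deposited for each of 6 libraries the name, length and sequence of each miRNA, its read count there, a TPM, and its count summed over the 6 libraries. The deposited counts were whole numbers and were used as given. The 6 columns of TPM values were not used. The aligner, miRNA database, prediction method and genome build were not given in the sources used here, and no genome was used, so positions were not determined. Groups and replicate numbers follow the sample titles.

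Members were predictions with 1 name per sequence and a total of at least 60. The members, lists and tests were chosen with earlier results of these data known. Counts of all 2730 names entered edgeR 4.0.16 under R 4.3.3. Low names were removed by filterByExpr (minimum count 10), libraries were scaled by TMM, and the robust quasi-likelihood test compared heat with control, with Benjamini-Hochberg adjustment over the 651 names kept. The SE is the log2 fold change divided by the square root of F. CPM values use TMM-adjusted library sizes unless said to be scaled by library totals, and limits for a count of 0 use library totals. Summed values over the members were given no p. Strand pairing used RNAduplex of ViennaRNA 2.7.2. The fit was tested on simulated data with 200 changed names. Their changes were larger than any fitted change of a member, so the test does not show how well smaller changes are found.

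Named members were the 10 with the highest total, those with an unadjusted p under 0.05 and further ones by p up to 5 in each direction, those with at least 80% of their CPM in 1 library, those at 0 throughout a group, the 4 most abundant arm pairs, the 6 most abundant with 18 or more bases in common with a known name, and the 3 rows on each side of the minimum total. Others are said to be chosen after their values were seen. Alternatives were DESeq2 1.42.0 (size factors, and its Wald test), library totals alone, a higher minimum count (20) or none, a replicate block, non-robust dispersions, collapsed identical sequences, leaving out each library, and minimum totals of 30 and 120. Figures were drawn with matplotlib 3.10.9.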

Additional observations from a re-analysis of the deposited data

How the results depend on the processing

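The 0 members called by edgeR stayed 0 in all alternatives run except without a count filter, where 1 was called. The number with an unadjusted p under 0.05 was 5 of 157 members (all names 20 of 651). It became 3 of 157 with library totals alone (all names 17 of 651) and 3 of 96 with a minimum count of 20 (17 of 456). Without a filter it was 11 of 173 (126 of 2730). A minimum total of 120 left 3 of the 5, from the main fit with its 20 of 651 names. With single libraries left out the number lay between 2 and 9. Omitting both control replicate 2 and heat replicate 1, chosen after the data were seen, gave 5. The replicate block gave 0 called members and 5 at an unadjusted p under 0.05 (all names 33 of 651). Libraries with equal replicate numbers showed no clear pairing, with correlations of deviations of 0.081, -0.193 and 0.151. With 3 libraries per group a weak shared effect could not be seen this way.

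For 19 named members, 20 of 280 log2 fold changes reversed, in 6 members, and 0 passed the threshold. With both of those libraries omitted they were -0.14 (m1027-3p), 0.32 (m0792-5p), 0.17 (m1758-3p) and 0.45 (m0792-3p). The block gave 0.023 (m0792-5p) and 1.85 (m1111-5p), library totals 0.22 (m1111-5p), and each sequence counted once 0.0038 (m1111-5p). Over single libraries left out the ranges were -0.14 to 0.39 (m1027-3p), -0.30 to 0.27 (m0792-5p), -0.25 to 0.14 (m1758-3p), -0.62 to 2.09 (m1111-5p), -1.58 to 0.76 (m0792-3p) and -1.12 to 0.20 (m0760-3p). The cause was not tested.

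By construction, a minimum total of 30 gave 285 members and one of 120 gave 95. Those detected per library were then 264 and 90.7 in control and 262 and 91.3 in heat. With at least 5 reads, 159 and 155 were detected. Of the counts of predictions alone, summed over all names, members held 34.0% and 32.3%. The minimum total of 120 left 2 members with most reads in 1 library in place of 4, and 20 shared bases left 5 members overlapping a known name in place of 9. The median total of the members was 137 counts.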

Other observations

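Among the 602 single-name predictions with totals below 60, T stood first in 52.5% and 62.1% had 22 bases, against 49.1% and 51.4% of the members; these differences were not tested. Their totals ran from 6 to 59 with a median of 12 and summed to 10721 counts. All 6 libraries held a count for 76 of them, and 30 were counted in 1 library alone.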
